A study of Mus musculus with 32 samples.

Results

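The genes described here encode 10 enzymes of prostaglandin and leukotriene metabolism, namely Ptgs1, Ptgs2, Ptges, Hpgds, Tbxas1, Hpgd, Alox5, Alox5ap, Ltc4s and Lta4h. They were taken from the 54281 gene identifiers of the count table by their symbols, and each symbol matched 1 identifier. The set was selected on the day 3 libraries after 4-OHT, in which Ptgs1 was lower without Trex1, so every value that rests on the 4-OHT-treated libraries of day 3 is given as a description without a test. All 10 genes passed the filter on low counts.

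Prostaglandins and leukotrienes are short-lived lipid mediators that macrophages make from arachidonic acid, which phospholipases release from membranes. The cyclooxygenases encoded by Ptgs1 and Ptgs2 convert arachidonic acid to prostaglandin H2, from which the synthases encoded by Ptges, Hpgds and Tbxas1 make prostaglandin E2, prostaglandin D2 and thromboxane A2. Hpgd encodes the dehydrogenase that inactivates prostaglandins. In the parallel branch, the 5-lipoxygenase encoded by Alox5 works with the membrane protein encoded by Alox5ap to form leukotriene A4, which Lta4h turns into leukotriene B4 and Ltc4s into leukotriene C4.

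The libraries hold the RNA of bone marrow-derived macrophages (BMDMs), cells grown from mouse bone marrow with the growth factors of L929 cell supernatant. TREX1 is a DNA exonuclease that degrades DNA in the cytosol, and cells without it mount a type I interferon response. BMDMs of Trex1 FL/FL and Trex1 WT/FL mice were compared, both with the R26 CreERT2 allele, a Cre recombinase expressed from the widely active Rosa26 locus that 4-hydroxytamoxifen (4-OHT) switches on. In FL/FL cells Cre can remove both copies of Trex1, whereas WT/FL cells keep a wild type copy. Cultures received 4-OHT at 2 µg/ml for 22 h or stayed untreated, and were harvested on day 1, 2, 3 or 4 after the treatment. This gave 16 groups of 2 libraries, 32 in all. The labels name no animal, culture or batch. The serial numbers in the library titles differ by a constant step between the libraries of a group, and no source says what the step marks, so that these may or may not be separate animals. The p-values therefore measure the spread between these libraries only, which may be technical. The libraries of a group are called library 1 and library 2, in numbers that serve only as names.

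Library totals ranged from 35120505 to 63760884 estimated counts, with a median of 44841991. Trex1 held 0 to 14 counts in the 8 libraries of 4-OHT-treated FL/FL cells and 758 to 3622 in the 8 of 4-OHT-treated WT/FL cells. All 8 macrophage markers examined (such as Adgre1, Csf1r and Cd68) were detected, with a summed level of 15280 to 48650 CPM. Between the genotypes after 4-OHT, Fcgr1 was higher on day 2 and day 4 (log2 fold changes 1.52 and 2.26) and Cd14 on day 4 (0.29), while Lyz2 was lower on day 2 (-0.38) and Csf1r and Itgam on day 4 (-0.28 and -0.35), and the part of these markers in the results was not tested. CPM is a count scaled to the size of its library, and levels in CPM use TMM-scaled library sizes. The markers of dendritic cells, fibroblasts, T cells and B cells summed to 0.716 to 2.67, 0.396 to 3.25, 0 to 0.542 and 1.31 to 6.58 CPM. Of these, 5 of 6, 5 of 6, 1 of 5 and 1 of 5 had enough counts to be tested. None of the tested ones passed between the genotypes after 4-OHT on day 2 or day 4, and nothing is known from the test about the others.

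Across the 32 libraries the enzymes spanned a wide range of abundance. Per kilobase of the canonical transcript, Alox5ap had the highest level (median 122 CPM per kb), followed by Hpgds (51.4), Tbxas1 (43.6), Lta4h (23.9), Ptgs1 (15.4), Ltc4s (8.15), Alox5 (3.25), Hpgd (2.59), Ptges (2.15) and Ptgs2 (0.503). In this order only Alox5ap stood clear of its neighbour, with a lowest library at 95.9 CPM per kb against a highest of 71.7 for Hpgds. All other neighbours had overlapping ranges. The constitutive cyclooxygenase gene Ptgs1 exceeded the inducible Ptgs2 in every library on this scale. The ratio of Ptgs1 to Ptgs2 was 12.0 to 15.0 in the untreated WT/FL libraries of day 1 and 70.0 to 72.6 in those of day 3. In 4-OHT-treated FL/FL cells it was 12.4 to 14.8 on day 1 and 14.3 to 26.9 on day 4. Their day 3 libraries had ratios of 7.91 and 9.34, the lowest of all groups. Nothing is read from this rank, since the low Ptgs1 of these libraries chose the genes.

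The sequence before the start of the canonical transcript is shown for Ptgs1, Hpgd, Alox5 and Hpgds, the genes that differed most in level or stood apart in direction. The windows are 250 bases long, on GRCm39 with the starts of GENCODE vM39, and are printed 5′ to 3′ on the strand of the gene. They lie at chr2:36120188-36120437 (+) for Ptgs1, chr8:56747293-56747542 (+) for Hpgd, chr6:116438140-116438389 (-) for Alox5 and chr6:65121984-65122233 (-) for Hpgds. The genes themselves span chr2:36120438-36142287, chr8:56747543-56774082, chr6:116387032-116438139 and chr6:65094001-65121983. Of the other enzymes, Ptgs2 lies at chr1:149975194-149983978 (+), Ptges at chr2:30779483-30820196 (-), Tbxas1 at chr6:38852203-39061523 (+), Alox5ap at chr5:149196003-149227762 (+), Ltc4s at chr11:50127288-50129443 (-) and Lta4h at chr10:93289210-93320749 (+). Exons of the genes Gm13431 and Gm75038 lie in the Ptgs1 window and none in the other 3. Capitals mark matches to the motifs named next.
Ptgs1: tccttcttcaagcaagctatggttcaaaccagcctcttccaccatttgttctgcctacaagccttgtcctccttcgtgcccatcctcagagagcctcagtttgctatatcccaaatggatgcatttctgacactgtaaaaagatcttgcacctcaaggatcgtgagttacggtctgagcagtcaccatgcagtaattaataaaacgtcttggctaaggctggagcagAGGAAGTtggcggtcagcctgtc
Hpgd: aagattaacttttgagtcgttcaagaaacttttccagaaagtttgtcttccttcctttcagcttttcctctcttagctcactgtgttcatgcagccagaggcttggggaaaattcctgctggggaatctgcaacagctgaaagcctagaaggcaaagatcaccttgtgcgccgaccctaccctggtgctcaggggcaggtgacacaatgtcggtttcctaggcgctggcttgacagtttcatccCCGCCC
Alox5: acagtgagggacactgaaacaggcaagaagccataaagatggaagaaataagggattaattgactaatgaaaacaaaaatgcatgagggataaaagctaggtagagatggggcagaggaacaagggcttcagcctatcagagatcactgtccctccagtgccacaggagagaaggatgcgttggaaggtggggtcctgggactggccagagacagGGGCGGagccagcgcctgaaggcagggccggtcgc
Hpgds: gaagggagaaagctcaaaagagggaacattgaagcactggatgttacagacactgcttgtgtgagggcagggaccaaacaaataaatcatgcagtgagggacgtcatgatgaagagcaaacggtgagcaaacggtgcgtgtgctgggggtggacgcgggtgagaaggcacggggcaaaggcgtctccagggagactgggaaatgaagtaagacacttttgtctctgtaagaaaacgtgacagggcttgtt
The motifs were searched on both strands in the windows of the 10 enzymes and of all 21757 protein-coding genes with a canonical transcript on the numbered and sex chromosomes. Ptgs1 holds AGGAAGT, an ETS site of the PU.1 type, from 23 to 17 bases before its start. Ltc4s holds it too, and 7.12% of all windows do. Hpgd and Alox5 hold GGGCGG, an SP1 site that 36.3% of windows contain, and so does Ptges. The Hpgds window holds none of the motifs. The core of the interferon-stimulated response element, searched as GAAA, any 2 bases and GAAA, was in 0 of the 10 windows and in 3.32% of all. TTCNNNGAA, a STAT site, was in the Ptgs2 window and in 7.70% of all, and TGANTCA, an AP-1 site, was in the Tbxas1 window and in 6.18% of all. A match describes the letters in these windows only.

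Time in culture moved most of these genes in cells that kept Trex1. From day 1 to day 4 of untreated cells, averaged over both genotypes, 5 of the 10 enzymes rose and 4 fell at an adjusted p below 0.01, the threshold used throughout. Among all 15257 genes tested, 32.7% were higher and 31.3% were lower in this comparison, and 64.0% passed in either direction. Hpgd rose 24.7-fold (log2 fold change 4.62 ± 0.19 SE, adjusted p = 3.21e-17 in edgeR's quasi-likelihood test). Tbxas1 rose 2.31-fold and Hpgds 1.63-fold, while Ltc4s rose 1.40-fold. Alox5 fell 5.49-fold (log2 fold change -2.46 ± 0.11 SE), Ptgs2 2.23-fold, Ptges 1.65-fold and Lta4h 1.43-fold. Alox5ap rose by the smallest amount, 1.11-fold (adjusted p = 0.00304), and its call was lost without library 1 of the untreated WT/FL cells of day 1 (adjusted p = 0.0137) or day 4 (0.0279), and without library 1 of the untreated FL/FL cells of day 1 (0.0428) or day 4 (0.0154). Over all alternatives its adjusted p ranged from 3.16e-05 to 0.0826. Ptgs1 had a log2 fold change of -0.11 ± 0.055 SE and did not pass. The comparison is of day 4 with day 1 only, and not every course between them was steady. In untreated WT/FL cells mean Hpgd was 23.5 CPM on day 3 and 14.3 CPM on day 4. Mean Ltc4s was 10.3 and 5.65 CPM on these days, and mean Ptgs2 was 0.995 and 3.20 CPM.

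**Figure D1:**
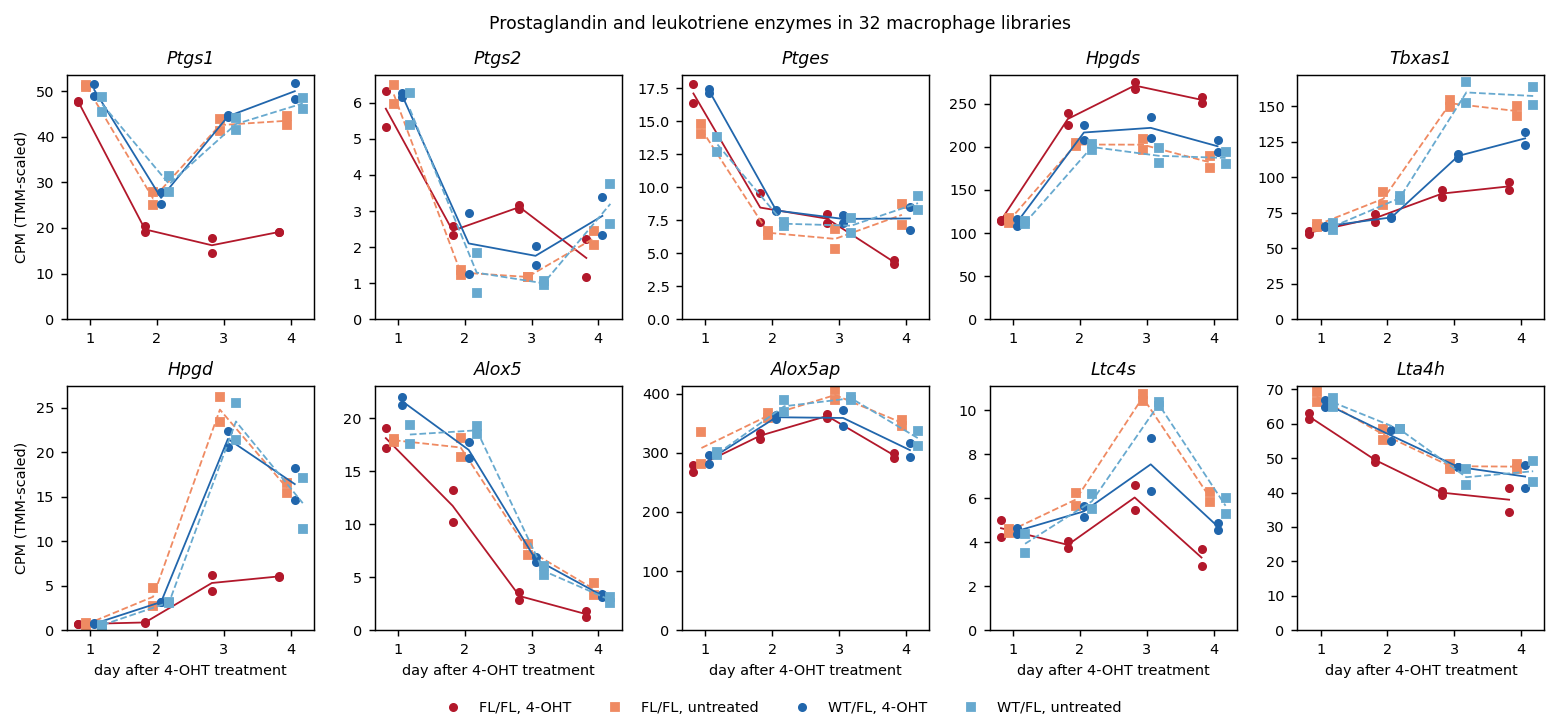
Level of each enzyme gene in CPM (y axis, a scale of its own for each gene, starting at 0) on days 1 to 4 after the treatment (x axis). Points are single libraries, lines join the means of 2 libraries, red stands for FL/FL, blue for WT/FL, circles for 4-OHT and squares for untreated cells. Ptgs1 stayed at 14.6 to 20.4 CPM after day 1 in 4-OHT-treated FL/FL cells, and was at 41.2 to 51.8 CPM in all other libraries of days 3 and 4. Its day 3 values after 4-OHT served to choose the genes.

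After 4-OHT, FL/FL cells had less Ptgs1, Hpgd and Alox5 mRNA than WT/FL cells on days 2 and 4, and on day 4 also less Ptges and Tbxas1 and more Hpgds. On day 1, 0 of the 10 enzymes passed in edgeR, 0 had an unadjusted p under 0.05 and DESeq2 called 0, beside 0.0197% of all tested genes called by edgeR. On day 2, 3 enzymes were lower and 0 were higher, against 2.48% and 5.69% of all tested genes and 8.17% in either direction. On day 4, 5 were lower and 1 was higher, against 11.7% and 9.84%, or 21.5% in either direction. The median log2 fold change of the 10 enzymes was -0.16 on day 2 and -0.64 on day 4, and that of all tested genes was -0.0097 and -0.037. With the study's additional threshold, an absolute log2 fold change above 1.5, 0 enzymes were called on day 1 (0.0131% of all tested genes), 1 on day 2, which was Hpgd (0.583%), and 0 on day 4 (2.98%). Libraries of the genotypes that did not overlap were counted as well, FL/FL lower first. On day 1 these were 5 and 0 enzymes (17.4% and 12.9% of all tested genes), on day 2 they were 6 and 0 (26.6% and 25.2%), and on day 4 they were 7 and 1 (35.0% and 27.9%). On day 3, 5 were lower and 2 higher (29.4% and 28.0%), from which nothing is read since these libraries chose the genes.

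**Figure D2:**
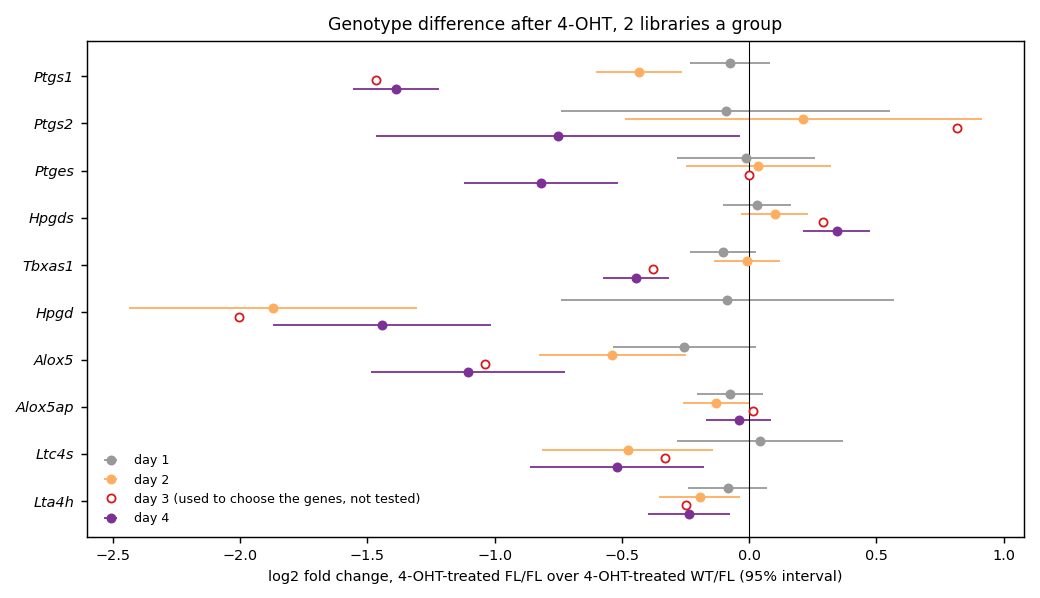
Log2 fold change of each enzyme gene in 4-OHT-treated FL/FL over 4-OHT-treated WT/FL cells (x axis), by gene (y axis) and day (colour), with 95% intervals from the edgeR fit and 2 libraries a group. Open points without intervals are day 3, which served to choose the genes. On days 2 and 4 the intervals of Ptgs1, Hpgd and Alox5 lay left of 0, and on day 4 that of Hpgds lay right of 0.

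Ptgs1 encodes the cyclooxygenase that many cells express at rest. It was low in every group on day 2, and on day 4 in 4-OHT-treated FL/FL cells alone. The same held on day 3, whose 4-OHT-treated libraries chose the genes. On day 1 its level was 47.6 and 47.9 CPM in 4-OHT-treated FL/FL cells and 51.6 and 49.1 CPM in 4-OHT-treated WT/FL cells. On day 2 it was at 20.4 and 19.0 CPM in 4-OHT-treated FL/FL cells, 27.9 and 25.3 CPM in 4-OHT-treated WT/FL cells, 27.8 and 25.1 CPM in untreated FL/FL cells and 31.4 and 27.9 CPM in untreated WT/FL cells. Both 4-OHT-treated FL/FL libraries lay below the other 6. The genotype difference on day 2 was -0.43 ± 0.082 SE on the log2 scale (adjusted p = 0.000396). This call was lost without library 1 of the 4-OHT-treated WT/FL cells (adjusted p = 0.016) or library 2 of the 4-OHT-treated FL/FL cells (0.0154), and over all alternatives the adjusted p ranged from 4.81e-05 to 0.016.

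In the control groups Ptgs1 was back near its day 1 level on day 4, and in 4-OHT-treated FL/FL cells it was not. On day 4 these cells held 19.1 and 19.2 CPM, against 48.2 and 51.8 CPM in 4-OHT-treated WT/FL, 44.5 and 42.5 CPM in untreated FL/FL and 46.1 and 48.6 CPM in untreated WT/FL cells, so that no library overlapped. Ptgs1 was at 38.2% of its WT/FL level after 4-OHT on day 4 (log2 fold change -1.39, 95% interval -1.56 to -1.22, adjusted p = 4.15e-13), and the call at this threshold held under every other scaling, filter, tool and left-out library tried (log2 fold change -1.44 to -1.33). It did not meet the study's threshold on the fold change. On day 3 the libraries were at 17.8 and 14.6 CPM in 4-OHT-treated FL/FL and at 44.7 and 44.3 CPM in 4-OHT-treated WT/FL cells, a difference of -1.47 on the log2 scale that belongs to the values the set was selected on. Reads from the antisense gene Gm43621, whose exons overlap those of Ptgs1, summed to 3 counts over all libraries, beside 57582 for Ptgs1.

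Platelets and their precursors also express Ptgs1 and Tbxas1, and markers of these cells differed between the same groups. The 8 megakaryocyte and platelet markers summed to 43.3 and 47.5 CPM in 4-OHT-treated FL/FL and to 151 and 157 CPM in 4-OHT-treated WT/FL cells on day 4. Most of each sum is the single gene Pf4, at 41.6 to 175.5 CPM over all libraries. Itgb3 reached at most 10.1, Ppbp 1.72 and Itga2b 0.472 CPM in any library. Of the 4 markers that could be tested, Pf4, Ppbp and Itgb3 were lower on day 4 (log2 fold changes -1.75, -3.38 and -2.17) and Itga2b did not pass. Pf4 was also lower on day 2 (log2 fold change -0.38). In untreated WT/FL cells the 8 markers summed to 78.7 to 84.2 CPM on day 1 and 126 to 133 CPM on day 2. On days 3 and 4 they summed to 88.9 to 90.9 and 159 to 182 CPM. Ptgs1 in these libraries was at 45.5 to 48.7, 27.9 to 31.4, 41.4 to 44.2 and 46.1 to 48.6 CPM. The platelet glycoprotein genes were at or near 0, with 0 counts of Gp1bb in every library and at most 3 of Gp6, 4 of Gp9 and 5 of Gp5 in any. The part of these markers in the result was not tested. In bulk RNA, fewer cells of a type and less RNA per cell cannot be told apart.

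Ptgs2, the cyclooxygenase gene induced in activated macrophages, stayed low and varied between libraries. In 4-OHT-treated FL/FL cells it was at 6.34 and 5.34 CPM on day 1, 2.33 and 2.58 on day 2, 3.16 and 3.06 on day 3 and 2.21 and 1.18 on day 4. In 4-OHT-treated WT/FL cells the values were 6.17 and 6.28, 1.26 and 2.94, 2.02 and 1.496, and 3.39 and 2.33 CPM. The genotypes overlapped on days 1 and 2, the FL/FL libraries lay above on day 3 and below on day 4. Neither day 2 (log2 fold change 0.21, 95% interval -0.49 to 0.91) nor day 4 (-0.75, 95% interval -1.47 to -0.038, adjusted p = 0.109) passed in edgeR. On day 2 Ptgs2 was also at 1.21 and 1.38 CPM in untreated FL/FL cells, below both 4-OHT-treated FL/FL libraries. This change after 4-OHT (log2 fold change 0.92 ± 0.35 SE, adjusted p = 0.0805) passed only in the fit without the filter on low counts (0.91, adjusted p = 0.00787, in a range of 0.00787 to 0.275).

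Of the 3 genes that draw on prostaglandin H2, Hpgds was higher and Ptges and Tbxas1 were lower in 4-OHT-treated FL/FL cells by day 4. Hpgds, the hematopoietic prostaglandin D synthase, did not overlap between the genotypes on days 3 and 4. Its levels in 4-OHT-treated FL/FL cells were 114 and 115 CPM on day 1, 225 and 240 on day 2, 276 and 267 on day 3 and 251 and 258 on day 4. In 4-OHT-treated WT/FL cells they were 108 and 117, 226 and 208, 210 and 234, and 194 and 208 CPM. On day 4 Hpgds was 1.27-fold higher in FL/FL cells (log2 fold change 0.34 ± 0.064 SE, adjusted p = 0.000125), and the adjusted p ranged from 1.1e-06 to 0.00709 over the alternatives. The 10 markers of mast cells and basophils, cells that also express this gene, summed to 2.30 and 2.96 CPM in 4-OHT-treated FL/FL and to 0.497 and 0.743 CPM in WT/FL cells on day 4. Of the 2 that could be tested, Hdc was higher (log2 fold change 2.25 on day 4 and 2.18 on day 2) and Kit did not pass. Fcer1a, Cma1, Mcpt4, Mcpt8 and Tpsb2 held 0 counts in every library. The part of Hdc and of these cells in the result was not tested.

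Ptges, the inducible synthase of prostaglandin E2, differed on day 4 only among the tested days. It was at 4.49 and 4.18 CPM in 4-OHT-treated FL/FL cells and at 8.53 and 6.72 CPM in 4-OHT-treated WT/FL cells on day 4, and both FL/FL libraries were the lowest of that day. The difference was -0.82 ± 0.15 SE on the log2 scale (adjusted p = 7.81e-05). On day 3 Ptges was at 7.95 and 7.27 CPM in FL/FL and 7.90 and 7.28 CPM in WT/FL cells after 4-OHT, which overlapped.

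Tbxas1, the thromboxane A2 synthase gene, had higher levels on day 4 than on day 1 in every group, by the least in 4-OHT-treated FL/FL cells. After 4-OHT, FL/FL cells held 59.8 and 61.9 CPM on day 1, 68.7 and 73.8 on day 2, 85.8 and 91.1 on day 3 and 90.7 and 96.4 on day 4. The WT/FL cells held 64.7 and 65.9, 72.2 and 71.1, 114 and 116, and 122 and 132 CPM, and untreated cells of both genotypes reached 143 to 163 CPM on day 4. The 3 levels did not overlap on day 4, with untreated cells highest and 4-OHT-treated FL/FL cells lowest. The genotype difference after 4-OHT on day 4 was -0.44 ± 0.063 SE (adjusted p = 2.96e-06).

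Hpgd, the enzyme that inactivates prostaglandins, had the lowest fold change estimate of the set on days 2 and 4, on day 4 with a 95% interval (-1.87 to -1.01) that also holds the estimate of Ptgs1. On day 1 it held 0.489 to 0.812 CPM in all 8 libraries. On day 2 it was at 0.842 and 0.888 CPM in 4-OHT-treated FL/FL cells, against 3.16 and 3.17 CPM in 4-OHT-treated WT/FL, 2.75 and 4.76 CPM in untreated FL/FL and 3.04 and 3.21 CPM in untreated WT/FL cells. The 4-OHT-treated FL/FL libraries of day 2 thus stayed close to the day 1 range. On day 3 the values were 4.36 and 6.26 CPM in 4-OHT-treated FL/FL and 22.4 and 20.7 CPM in 4-OHT-treated WT/FL cells. On day 4 they were 6.04 and 6.05 CPM against 14.7 and 18.2 CPM. Hpgd was at 27.4% of the WT/FL level on day 2 (log2 fold change -1.87 ± 0.27 SE, adjusted p = 2e-05) and at 36.8% on day 4 (-1.44 ± 0.21 SE, adjusted p = 5.98e-06). At an adjusted p below 0.01 both calls held under every other scaling, filter, tool and left-out library tried, with highest adjusted p of 0.00171 and 0.000446, and only that of day 2 met the study's threshold on the fold change.

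In the leukotriene branch, Alox5 was lower in 4-OHT-treated FL/FL cells on days 2 and 4 and its partner Alox5ap did not pass. Alox5 was lower on days 3 and 4 than on day 1 in every group. It was at 17.2 and 19.1 CPM on day 1, 10.2 and 13.2 on day 2, 2.84 and 3.61 on day 3 and 1.77 and 1.24 on day 4 in 4-OHT-treated FL/FL cells. In 4-OHT-treated WT/FL cells it was at 22.1 and 21.2, 16.3 and 17.8, 6.47 and 6.92, and 3.38 and 3.13 CPM. The genotypes did not overlap on any day, but the difference on day 1 did not pass (log2 fold change -0.25 ± 0.14 SE). On day 4 Alox5 was at 46.5% of the WT/FL level (log2 fold change -1.11 ± 0.19 SE, adjusted p = 3.29e-05, at most 0.00733 over the alternatives).

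The day 2 call of Alox5 (log2 fold change -0.54 ± 0.14 SE, adjusted p = 0.0091) was less stable. It was lost without library 1 (adjusted p = 0.023) or library 2 (0.103) of the 4-OHT-treated WT/FL cells, without library 1 of the 4-OHT-treated FL/FL cells (0.234), and in a fit to the 4 libraries of the contrast (0.0129). Over all alternatives the adjusted p ranged from 0.00159 to 0.234. Neutrophils also express Alox5 and Alox5ap. The 8 neutrophil markers summed to 7.84 and 7.97 CPM in 4-OHT-treated FL/FL and to 9.77 and 19.1 CPM in 4-OHT-treated WT/FL cells on day 4, none of the 7 that could be tested passed on day 2 or day 4, and Ly6g held at most 6 counts in a library.

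Alox5ap, the most abundant of these transcripts, was at 300 and 292 CPM in 4-OHT-treated FL/FL and at 316 and 293 CPM in 4-OHT-treated WT/FL cells on day 4, which overlapped (log2 fold change -0.042, 95% interval -0.17 to 0.087). Ltc4s, which makes leukotriene C4, was at 2.91 and 3.69 CPM against 4.88 and 4.56 CPM on day 4, without overlap. On day 3 it was at 6.61 and 5.45 CPM in 4-OHT-treated FL/FL and 8.76 and 6.32 CPM in 4-OHT-treated WT/FL cells, which overlapped, and at 10.2 to 10.7 CPM in the 4 untreated libraries. The genotype differences of Ltc4s after 4-OHT, at -0.48 ± 0.16 SE on day 2 (adjusted p = 0.0537) and -0.52 ± 0.17 SE on day 4 (adjusted p = 0.0181), did not pass. The antisense gene Gm26542 overlaps Ltc4s and held 232 counts over all libraries, beside 8581 for Ltc4s, and no source states that the counting used strand. Lta4h, which makes leukotriene B4, was at 34.4 and 41.4 CPM against 41.3 and 48.0 CPM on day 4 and overlapped (log2 fold change -0.24 ± 0.078 SE, adjusted p = 0.023). Its call appeared without library 1 of the 4-OHT-treated WT/FL cells (adjusted p = 0.00532) or library 2 of the 4-OHT-treated FL/FL cells (0.00222), in a range of 0.00222 to 0.449.

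Since the genotypes could differ before any deletion, untreated FL/FL and WT/FL cells were compared. 0 of the 10 enzymes passed on any of the 4 days in edgeR or DESeq2, beside 0.00% of all tested genes on days 1 to 3 and 0.0655% on day 4 (0.0131% higher and 0.0524% lower). An unadjusted p under 0.05 was found for 0 enzymes on day 1 and for 1 on each of days 2, 3 and 4. Ptgs1 was the one on day 2, lower in FL/FL cells at -0.17 on the log2 scale (95% interval -0.33 to -0.0012). Alox5 was the one on the later days, higher in FL/FL cells by 0.44 ± 0.15 SE on day 3 and 0.47 ± 0.17 SE on day 4 on the log2 scale, which is the opposite direction to its difference after 4-OHT. Both were named after their values were seen. For Ptgs1 on day 4 the untreated genotypes differed by -0.12 on the log2 scale (95% interval -0.28 to 0.041).

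Cells treated with 4-OHT and untreated cells were compared within each genotype, a difference called the 4-OHT effect. In FL/FL cells it joins the agent with the loss of Trex1, which this comparison cannot tell apart. In FL/FL cells 0 enzymes passed on day 1, 5 were lower on day 2 and 8 were lower with 1 higher on day 4, against 0.0131%, 3.59%, 11.2% and 10.2% of all tested genes called by the same rules. On day 2, 7.49% of all tested genes were higher and 11.1% passed in either direction, where 0 enzymes were higher, and on day 4 21.4% passed in either direction. In WT/FL cells, where 4-OHT removes the floxed copy and leaves the wild type one, 0 passed on days 1, 2 and 4, against 0.00655%, 0.0918% and 0.216% (on day 4, 0.0524% higher and 0.164% lower). Unadjusted p under 0.05 were found for 1, 2 and 1 enzymes in WT/FL cells and for 1 in FL/FL cells on day 1. DESeq2 called 0 enzymes in these 4 comparisons except Tbxas1 in WT/FL cells on day 4. The median log2 fold change of the 10 enzymes on day 4 was -0.76 in FL/FL and -0.070 in WT/FL cells, and that of all tested genes was -0.038 and 0.0069. The 4-OHT effect in FL/FL cells and the genotype difference after 4-OHT share the 4-OHT-treated FL/FL libraries.

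**Figure D3:**
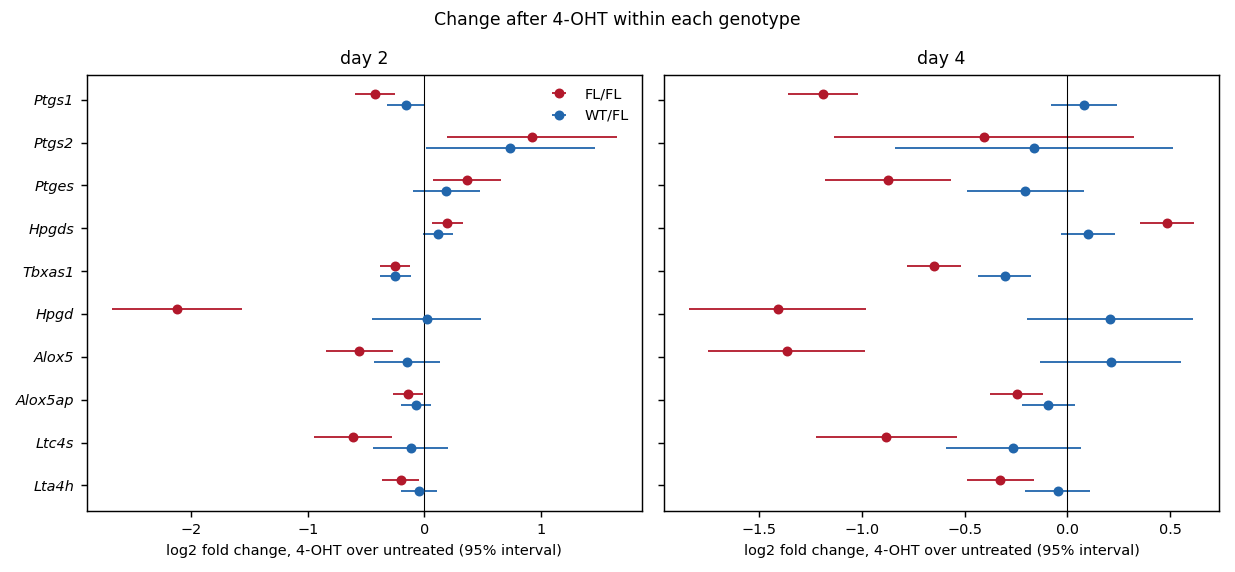
Log2 fold change of each enzyme gene in 4-OHT-treated over untreated cells (x axis) on day 2 and day 4, for FL/FL (red) and WT/FL (blue), with 95% intervals from the edgeR fit. On day 4 the intervals of Ptgs1, Hpgd and Alox5 lay left of 0 in FL/FL and held 0 in WT/FL cells, and Tbxas1 lay left of 0 in both.

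On day 4 the fall of Ptgs1 in FL/FL cells, relative to untreated cells, was -1.19 ± 0.082 SE on the log2 scale (adjusted p = 5.88e-12) and its change in WT/FL cells was 0.080 ± 0.078 SE. Hpgd fell by 1.41, Alox5 by 1.36, Ltc4s by 0.88, Ptges by 0.87 and Tbxas1 by 0.65 on the log2 scale in FL/FL cells, while Hpgds rose by 0.48. The smaller falls of Alox5ap (-0.25 ± 0.063 SE, adjusted p = 0.00338) and Lta4h (-0.33 ± 0.079 SE, adjusted p = 0.00195) depended on single libraries. Alox5ap lost its call without any one of the 4 libraries (library 1 or 2 of untreated FL/FL cells, adjusted p = 0.0385 and 0.0112, library 1 or 2 of 4-OHT-treated FL/FL cells, 0.014 and 0.038, in a range of 0.000915 to 0.0385). Lta4h lost it without library 2 of the untreated FL/FL cells (adjusted p = 0.0185) or library 1 of the 4-OHT-treated FL/FL cells (log2 fold change -0.20, adjusted p = 0.108), and in the fit to the libraries of the contrast (0.0106), in a range of 0.00024 to 0.108. Ltc4s lost it without library 1 of the 4-OHT-treated FL/FL cells (adjusted p = 0.0108, in a range of 3.22e-05 to 0.0108).

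On day 2 the enzymes lower after 4-OHT in FL/FL cells were Hpgd (log2 fold change -2.12 ± 0.27 SE, adjusted p = 2.04e-06), Ltc4s (-0.61 ± 0.16 SE), Alox5 (-0.56 ± 0.14 SE), Ptgs1 (-0.43 ± 0.082 SE) and Tbxas1 (-0.25 ± 0.064 SE). Only Hpgd held under every other scaling, filter, tool and left-out library tried, with an adjusted p of at most 0.00103. Without the filter on low counts Ltc4s was lost (adjusted p = 0.0124). Without library 1 of the untreated FL/FL cells Ptgs1, Alox5 and Ltc4s were lost (adjusted p = 0.0159, 0.0114 and 0.019). Without library 2 of the untreated cells or library 1 of the 4-OHT-treated cells Tbxas1, Alox5 and Ltc4s were lost (adjusted p = 0.172, 0.079 and 0.084, and 0.11, 0.164 and 0.0335). Without library 2 of the 4-OHT-treated cells Ptgs1 and Ltc4s were lost (adjusted p = 0.0141 and 0.0877). The highest adjusted p over the alternatives was 0.0159 for Ptgs1, 0.172 for Tbxas1, 0.164 for Alox5 and 0.0877 for Ltc4s. On day 1 Alox5ap passed (log2 fold change -0.29, adjusted p = 0.00282) in the fit without library 1 of the untreated FL/FL cells, and its adjusted p reached 1 in other fits.

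The Tbxas1 libraries lay lower after 4-OHT in both genotypes on days 2 and 4. In WT/FL cells its log2 fold change was -0.25 ± 0.063 SE on day 2 (adjusted p = 0.275) and -0.30 ± 0.062 SE on day 4 (adjusted p = 0.0189), neither of which passed, and its libraries did not overlap with untreated ones on either day. DESeq2 (adjusted p = 0.000521) and a fit without the filter on low counts (0.00213) called it on day 4, in a range of 0.000521 to 0.319. On day 3 it was at 114 and 116 CPM in 4-OHT-treated and at 152 and 167 CPM in untreated WT/FL cells.

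Whether the change after 4-OHT differed between the 2 genotypes was tested as the difference of the effects. On day 1, 0 enzymes passed in edgeR or DESeq2 and 0 had an unadjusted p under 0.05, beside 0.00655% of all tested genes. On day 2, Hpgd alone passed (-2.14 ± 0.36 SE, adjusted p = 0.000222), with a lower effect, beside 0.492% of all tested genes with a lower, 3.55% with a higher and 4.04% with either. On day 4, 4 enzymes had a lower and 1 a higher effect in FL/FL cells, against 5.24% and 5.15%, or 10.4% in either direction. These were Hpgd (-1.61 ± 0.29 SE), Alox5 (-1.57 ± 0.25 SE), Ptgs1 (-1.27 ± 0.11 SE), Tbxas1 (-0.34 ± 0.089 SE) and Hpgds (0.38 ± 0.091 SE). Hpgd, Alox5 and Ptgs1 kept their calls at an adjusted p below 0.01 under every other scaling, filter, tool and left-out library tried, and of these Hpgd and Alox5 also exceeded an absolute value of 1.5.

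Tbxas1 and Hpgds did not. In edgeR Tbxas1 lost its call without the filter on low counts (adjusted p = 0.0103) and in the fit to the libraries of the contrast (0.0285). For Tbxas1 the adjusted p of 0.00669 rose to 0.0517, 0.0477, 0.0417 and 0.0454 without library 1 of untreated WT/FL, library 2 of 4-OHT-treated WT/FL, library 1 of untreated FL/FL and library 1 of 4-OHT-treated FL/FL cells, in a range of 0.00387 to 0.0517. For Hpgds the adjusted p of 0.00325 rose to 0.0265, 0.0294, 0.0315 and 0.0165 without library 2 of untreated WT/FL, library 1 of 4-OHT-treated WT/FL, library 1 of untreated FL/FL and library 2 of 4-OHT-treated FL/FL cells, in a range of 0.000369 to 0.0315. Ptges passed without library 2 of the 4-OHT-treated WT/FL cells (adjusted p = 0.00816, against 0.0221 with it, in a range of 0.00816 to 0.179).

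The genes around these enzymes were followed in a list of 58, of which 40 passed the filter on low counts. For Dpep2, which matched more than a single identifier, the one with the most counts was used. After 4-OHT, 0 of the 40 differed between the genotypes on day 1, 1 was higher and 2 were lower on day 2, and 3 were higher and 8 were lower on day 4. Among all tested genes 5.69% were higher and 2.48% lower on day 2, and 9.84% and 11.7% on day 4. Among phospholipases and related lipases, Pla2g4c, a cytosolic phospholipase A2, was at 1.21 and 1.30 CPM in FL/FL and at 0.305 and 0.328 CPM in WT/FL cells on day 2 (log2 fold change 1.98 ± 0.46 SE, adjusted p = 0.00312). The genotypes did not overlap, but the call was lost without any one of the 4 libraries (adjusted p = 0.0414 and 0.0366 without library 1 and library 2 of WT/FL, 0.016 and 0.0227 without library 1 and library 2 of FL/FL cells), and day 4 did not pass (1.12, adjusted p = 0.0578).

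Among the transporters and receptors of the list, Abcc1 and Cysltr2 alone passed with a change of more than 1 on the log2 scale. Abcc1, a transporter that exports leukotriene C4, was at 201 and 205 CPM in FL/FL and at 441 and 374 CPM in WT/FL cells on day 4 after 4-OHT (log2 fold change -1.002 ± 0.091 SE, adjusted p = 5.3e-09), without overlap, and the call at this threshold held under every other scaling, filter, tool and left-out library tried. Cysltr2, a receptor for cysteinyl leukotrienes, was at 3.88 and 3.45 CPM in FL/FL and at 1.40 and 1.60 CPM in WT/FL cells on day 4 (1.29 ± 0.37 SE, adjusted p = 0.00806). Its call was lost without library 1 (adjusted p = 0.0777) or library 2 (0.0363) of the WT/FL and library 1 (0.0591) or library 2 (0.0231) of the FL/FL cells.

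The other list genes that passed were named after their values were seen. On day 4 these were Dpep2 and Ggt5, which trim leukotriene C4 to its smaller products, at log2 fold changes of 0.61 and -0.93, Abcc4, a prostaglandin transporter, at -0.82, Pla2g7, the hydrolase of platelet-activating factor, at -0.56, and the reductase gene Ptgr3 at -0.65. The reductase genes Ptgr1 (-0.43) and Prxl2b (-0.36), the prostaglandin E2 receptor gene Ptger4 (-0.27) and the cysteinyl leukotriene receptor gene Cysltr1 (0.28) also passed on day 4, but not without some of the single 4-OHT-treated libraries. In edgeR Ptger4 also failed with RLE factors (adjusted p = 0.0116) and in the fit to the libraries of the contrast (0.0121). Cysltr1 also failed with upper-quartile factors (adjusted p = 0.0101). The calls were lost without library 1 of WT/FL (adjusted p = 0.0255 for Ptgr1, 0.0202 for Prxl2b, 0.0236 for Ptger4 and 0.0499 for Cysltr1), library 2 of WT/FL (0.0579 for Ptger4 and 0.0545 for Cysltr1), library 1 of FL/FL (0.0175 for Ptgr1, 0.0219 for Prxl2b, 0.105 for Ptger4 and 0.162 for Cysltr1) and library 2 of FL/FL (0.0125 for Ptgr1, 0.0132 for Prxl2b and 0.0138 for Ptger4). On day 2 Ptgr3 (-0.39) and Ptger4 (-0.40) were lower. Both calls were lost without library 1 of the 4-OHT-treated FL/FL cells (log2 fold changes -0.31 and -0.29). That of Ptgr3 was also lost without library 2 of the WT/FL cells (-0.32) and in the edgeR fit to the libraries of the contrast (adjusted p = 0.0111).

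**Figure D4:**
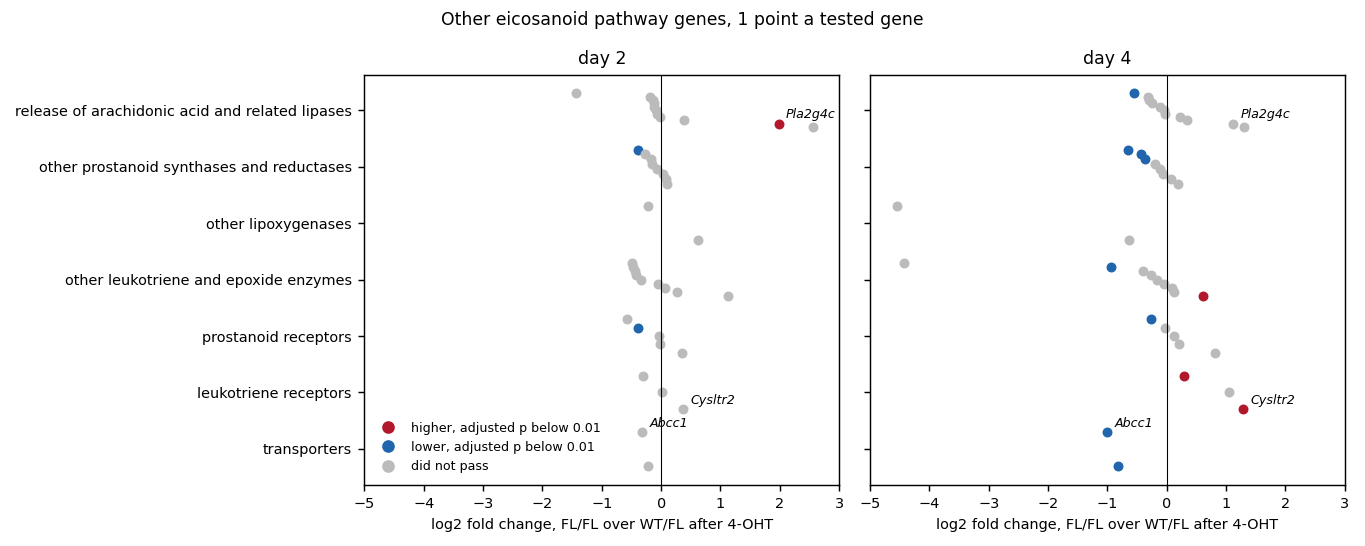
Log2 fold change of the 40 tested genes around the enzymes, by role (y axis), in 4-OHT-treated FL/FL over WT/FL cells (x axis) on day 2 and day 4. Each point is a gene, red and blue mark those higher and lower at an adjusted p below 0.01 in edgeR, and the text names Pla2g4c, Cysltr2 and Abcc1. On day 4, 8 points are blue and 3 are red, where 11.7% and 9.84% of all tested genes were lower and higher.

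Genes whose log2 CPM followed those of the enzymes most closely were sought over the 32 libraries, which share genotypes, treatments and days. Ptgs1 was most like Ptprs (Pearson's r = 0.92), Ptgfrn (0.902) and Itgb3 (0.901), the last of which is also in the platelet marker list. Hpgd was most like Ifngr1 (0.982), Gab1 (0.981) and Csad (0.98), and Alox5 like Ufsp2 (0.966), Mlec (0.963) and Add3 (0.961). Among the enzymes themselves, Hpgd and Tbxas1 had the highest correlation (r = 0.937), followed by Alox5 and Lta4h (0.888), and Ptges and Hpgds the lowest (-0.875). Ptgs1 and Hpgd, both lower in 4-OHT-treated FL/FL cells, had r = 0.048 over the same libraries.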

How the data were processed

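The authors sequenced the libraries on an Illumina instrument, demultiplexed with JE, checked reads with FastQC, quantified transcripts with Salmon and summed them per gene with tximport, with GRCm39 as the genome per the labels. The authors deposited estimated counts, summed by gene and not normalized, which are whole numbers in the table and needed no rounding. The counting's use of strand and the annotation release are not given in the sources used here.

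Identifiers were matched without their version to GENCODE vM39 (51048 of 54281, and 0.32% of counts unmatched). The main test was that of edgeR 4.0.16, run under R 4.3.3 (filterByExpr with a minimum count of 10, TMM factors, glmQLFit with robust estimation, glmQLFTest), with 1 mean for each of 16 groups, 16 residual degrees of freedom and a common biological coefficient of variation of 0.0912. A gene passed at a Benjamini-Hochberg adjusted p below 0.01 over all 15257 tested genes. With 2 libraries against 2, an exact permutation test cannot go below p = 0.33 and was not used. Fold changes use a prior count of 0.125, correlations log2 CPM with a prior count of 2. On data simulated for the genotype comparison of day 4 with 15070 genes, the test recovered 121 of 198 genes that were given a 1-unit log2 change, with 1 unchanged gene called. Only these 198 were changed there, whereas 21.5% of all tested genes passed in the data. The adjusted p depends on that share, so the recovery does not carry over to the data.

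The enzymes, the 58 pathway genes and the cell type markers were chosen with earlier results of these data known. Pathway genes were named by rule if they passed and moved by more than 1 on the log2 scale on day 2 or 4, and 3 like genes were named for Ptgs1, Hpgd and Alox5, while those of Ptges, which the rule also covers, are not reported here. Members share 0 to 2.17% of their 31-base words with transcripts of other genes. The 2 libraries of a group differed by more than counting noise (chi-square of 9.55 to 51.6 for each degree of freedom), so none was merged. As alternatives, RLE or upper-quartile factors replaced TMM, DESeq2 1.42.0 replaced edgeR, and other filters were tried, with a fit to the libraries of each contrast, other thresholds and each library left out.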

Additional observations from a re-analysis of the deposited data

Results flagged for a closer look

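The change after 4-OHT differed between FL/FL and WT/FL cells for 5 of the 10 enzymes, by the test of the difference itself in edgeR. Among all tested genes this difference passed for 4.04% on day 2 and 10.4% on day 4. On day 2 this held for Hpgd, whose change was lower in FL/FL cells by a log2 value of -2.14 (adjusted p = 0.000222), with -2.12 in FL/FL and 0.02 in WT/FL cells. On day 4 the differences were -1.61 for Hpgd (adjusted p = 0.000187), -1.57 for Alox5 (adjusted p = 3.28e-05), -1.27 for Ptgs1 (adjusted p = 3.68e-09), -0.34 for Tbxas1 (adjusted p = 0.00669) and 0.38 for Hpgds (adjusted p = 0.00325). The calls of Tbxas1 and Hpgds were each lost without any one of 4 single libraries. That of Tbxas1 was also lost without the filter on low counts and in the fit to the libraries of the contrast. On day 4, in FL/FL cells, both 4-OHT-treated libraries lay below both untreated ones for Hpgd, Alox5, Ptgs1 and Tbxas1 and above them for Hpgds. In WT/FL cells Tbxas1 was also lower in both 4-OHT-treated libraries, Alox5 was higher in both, and the libraries overlapped for Hpgd, Ptgs1 and Hpgds. No group had 4 or more libraries, so single libraries were not examined for distance from their group.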

How the results depend on the processing

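Leaving out 1 library moved the number of enzymes past the threshold from 0 to between 0 and 1 for 4-OHT in FL/FL cells on day 1, from 5 to between 2 and 3 on day 2 and from 9 to between 6 and 8 on day 4, from 3 to between 1 and 2 for the genotypes after 4-OHT on day 2, and from 5 to between 3 and 5 for the difference of the effects on day 4. The lone library of a group was then assumed to vary like the other groups. A fit to the libraries of the contrast gave 2 in place of 5 for 4-OHT in FL/FL cells on day 2, where fewer libraries estimate the spread. The study's threshold on the fold change gave 1 in place of 3 for the genotypes on day 2 and 0 in place of 6 on day 4. For 4-OHT in WT/FL cells on day 4, DESeq2 and the fit without a filter gave 1 in place of 0, and the cause was not tested. Of the tested single values of the enzymes, 1007 kept their side of the threshold under other settings, 10 lost and 3 gained a call, and with 1 library left out 801 kept it, 35 lost and 4 gained one. No value that passed in either setting changed sign. Alternatives for the pathway genes were added after seeing the data. No paired analysis was possible because no label gives a replicate number, animal or batch, and the numbers used here only name the libraries. The constant step between the titles of a group was not taken as a pairing, since no source says what it marks. At 2 libraries a group, low transcripts such as Ptgs2 have wide intervals.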

Other observations

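Hpgds, which is outside the rule for like genes and was added after its values were seen, was most like Trim30a (Pearson's r = 0.986), H2-T24 (0.985) and Parp14 (0.983) over the 32 libraries. The first and the last are known as interferon-inducible genes, and H2-T24 is a nonclassical MHC class I gene. Mean Hpgds also rose in untreated cells, from 112 CPM on day 1 to 200 CPM on day 2 in WT/FL cells. In untreated FL/FL cells it rose from 114 to 203 CPM. The part of day, treatment and genotype in these correlations was not tested.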
